A study of Rattus norvegicus with 18 samples.

Results

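Sla encodes the Src-like adaptor protein SLAP. It is 1 of the 32883 genes counted in the RNA libraries, and 13 of the 215951 regions in the list of 5-hydroxymethylcytosine peaks carry its name. The gene was chosen by the measured values of these same libraries, in which its RNA and part of its 5-hydroxymethylcytosine signal were lower with vitamin C, so the values of both contrasts are given as a description, without a test. Its members are its RNA row, matched by gene identifier (ENSRNOG00000056714), and every peak listed under its name, in the order of position along the gene.

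The libraries came from primary rat Schwann cells, the glia that ensheathe and myelinate peripheral axons, cultured to passage 3 with or without vitamin C. The treated group (VitC) and the untreated group (control) each had 3 libraries of RNA depleted of ribosomal RNA, 3 of DNA enriched for 5-hydroxymethylcytosine by immunoprecipitation (hMeDIP) and 3 of unenriched input DNA, 18 in all. The labels name no strain, age, genotype or further agent for either group, and leave out the dose and duration of vitamin C. Nor do they tie the replicates to separate cultures or animals, so every p-value here rests on a spread between libraries that may be technical only. RNA libraries held 23381814 to 33173282 reads in genes, hMeDIP libraries 24020306 to 39899445 reads in peaks and input libraries 7201638 to 9521037. Vitamin C replicate 1 stood apart in RNA: counts differed from those of the other treated libraries with a chi-square per degree of freedom of 27.4 and 38.3, against 5.26 between those 2 and 5.03 to 8.61 between controls.

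SLAP resembles the front part of Src family kinases: it has an SH3 domain and an SH2 domain, which bind proline-rich stretches and phosphorylated tyrosines, but no kinase domain. It is best known in developing T cells, where it brings the ubiquitin ligase Cbl to the T cell receptor and so lowers the receptor's surface level, and it also binds receptor tyrosine kinases such as the platelet-derived growth factor receptor, Epha2 and Kit. 5-hydroxymethylcytosine is made from methylated cytosine by TET enzymes, whose activity vitamin C is known to raise, and it is common in the bodies of genes and at regulatory sites.

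Sla RNA was far lower in the vitamin C libraries. The 3 vitamin C libraries held 1638, 1736 and 1986 reads of Sla, against 10332, 13042 and 9617 reads in the 3 control libraries. As CPM of the reads in genes (counts scaled to a common library size, with TMM factors) these were 64.5, 62.7 and 69.8 with vitamin C and 377, 385 and 402 in the controls. The groups lay far apart, and the libraries within each lay close together. The means were 65.7 ± 3.70 CPM with vitamin C and 388 ± 12.8 CPM in the controls (SD, n = 3 each), which left 16.9% of the control level, and the log2 change was -2.56 (SE 0.06, vitamin C over control). Fewer cells that make Sla and less Sla RNA per cell cannot be told apart in bulk RNA.

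**Figure D1:**
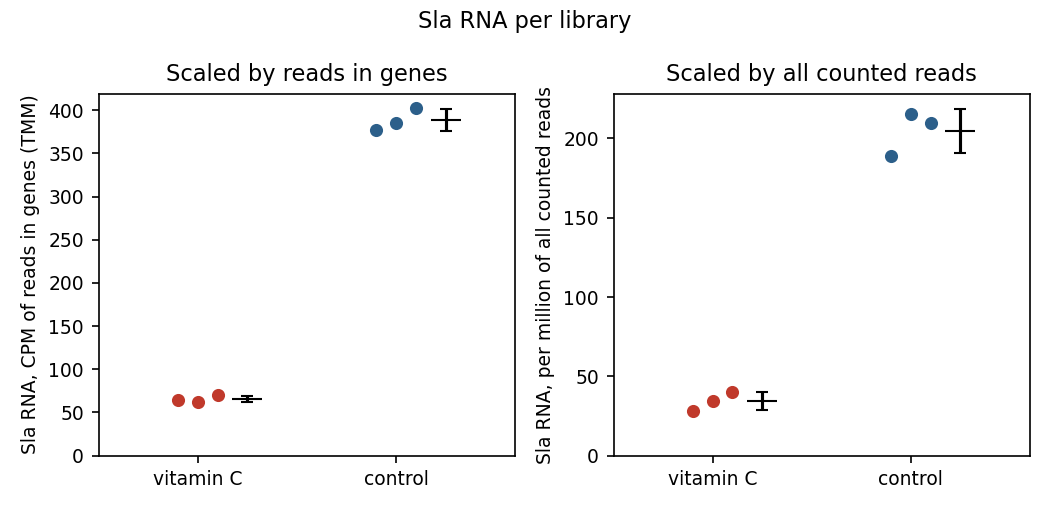
Sla RNA in each library (points), with the mean and SD of 3 libraries beside them, scaled by reads in genes (left) and by all counted reads (right). The vitamin C libraries sit between 62.7 and 69.8 CPM, all below the control libraries at 377 to 402 CPM.

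The size of the difference did not hang on the scaling or on 1 library. In CPM of all counted reads, which include reads outside genes and reads aligned at several places, Sla stood at 28.5, 34.7 and 40.1 in the vitamin C libraries and at 189, 216 and 210 in the control libraries. Its log2 change was then -2.57, and it ranged from -2.62 to -2.53 over the other scalings, filters and tools and with each library left out. Without vitamin C replicate 1 it was -2.55. Among the 12925 genes tested, 49 besides Sla had a log2 change as low as that of Sla or lower. Among the 9180 genes whose average log2 CPM was 3 or more, 8 besides Sla did. By edgeR's quasi-likelihood test 40.1% of the tested genes were called (adjusted p below 0.05). Of all tested genes 21.0% were called lower, 2.59% were called lower with a log2 change of -1 or below, and 28.9% were lower with no overlap between the groups, as Sla was. The median log2 change of all tested genes was -0.01.

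The cultures carried the markers of Schwann cells and almost none of the lymphocytes in which SLAP is best known. All 9 markers of the Schwann cell list were tested, with a summed level of 10700 to 11639 CPM in the vitamin C libraries and 11681 to 11867 CPM in the control libraries. By edgeR, Cdh19 (log2 change 0.67) and the transcription factor Egr2 (1.69) rose and S100b (-0.99), the neuregulin receptor Erbb3 (-0.16) and Gap43 (-0.18) fell, against 19.1% of all tested genes that rose and 21.0% that fell. The call of Erbb3 was lost under 7 other settings and that of Gap43 under 8, scaling by all counted reads and leaving out any 1 control library among them. Of 8 T cell markers 7 had a symbol, and together they held 45 to 51 reads per vitamin C library and 31 to 51 per control library. Cd3d and Cd2 were at 0 in every library, the 2 tested T cell markers did not pass, and the 3 B cell markers with a symbol had at most 3 reads each.

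Of 9 macrophage markers 7 had a symbol and 3 were tested, and 1 of these, Laptm5, fell (2.998 ± 0.18 CPM with vitamin C and 8.92 ± 0.94 CPM in the controls, log2 change -1.57, SE 0.12, edgeR adjusted p = 2.54e-05). Cd68 (0.14) and Fcer1g (-0.32) did not pass. The macrophage list, Laptm5 included, summed to 5.32 to 6.15 CPM with vitamin C and to 11.1 to 12.6 CPM in the controls. The defining markers Tyrobp, Ptprc and Csf1r had 0, at most 3 and at most 5 reads per library. Lists of other types moved with the treatment too: the 2 skeletal muscle markers with a symbol, of 5, summed to 368 to 394 CPM with vitamin C and 87.1 to 131 CPM in the controls (Myh3 and Des rose), and mural cell markers to 152 to 176 CPM with vitamin C and 61.6 to 62.9 CPM in the controls (Tagln and Pdgfrb rose). Only these 2 of the 5 mural cell markers were tested, since Acta2, Rgs5 and Cnn1 had at most 10, 1 and 3 reads per library. Of 3 tested fibroblast markers Col1a1 rose while Pdgfra and Pi16 fell, of 3 neuronal ones Tubb3 rose and Nefl fell, and Tek was the 1 endothelial marker tested and rose. Among the untested members of these 3 lists, Dcn and Cdh5 had 0 reads in every library. Kdr, Snap25, Rbfox3 and Stmn2 had at most 3, 3, 2 and 2 reads per library. The part of these marker shifts in the level of Sla was not tested.

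The 13 Sla peaks lie on chromosome 7 between positions 107593178 and 107620740, as the deposited list gives them, on a genome build not given in the sources used here. Sla is on the minus strand, and the list ties its peaks to 3 transcripts that end close together and start apart. The short transcript spans 107585921 to 107604981, the middle one 107585577 to 107616038 and the long one 107584118 to 107634287. The whole of Sla lies inside a transcript of thyroglobulin (Tg) on the opposite strand, 107467286 to 107652869. Peaks are numbered here from the lowest position, so that peak 13 lies nearest the start of the long transcript and peak 1 nearest the 3′ end. They are 327 to 1244 bases long.

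The hMeDIP signal of Sla was lower with vitamin C at part of its peaks, and the rest differed little in CPM of reads in peaks. Of the 13 peaks, 8 were lower with vitamin C and 5 were higher, against 47.8% of all peaks that were lower. The 5 higher peaks had log2 changes of only 0.11 to 0.29 (SE 0.12 to 0.15). Of the 4 lowest changes, 3 sat together in the stretch between the starts of the short and the middle transcript. At 8 peaks the 3 vitamin C libraries were all below the 3 controls and at 1 peak all above, against 38.3% and 38.6% of all peaks. The median log2 change of the Sla peaks was -0.58, with a range of -1.48 to 0.29, and that of all peaks was 0.04.

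**Figure D2:**
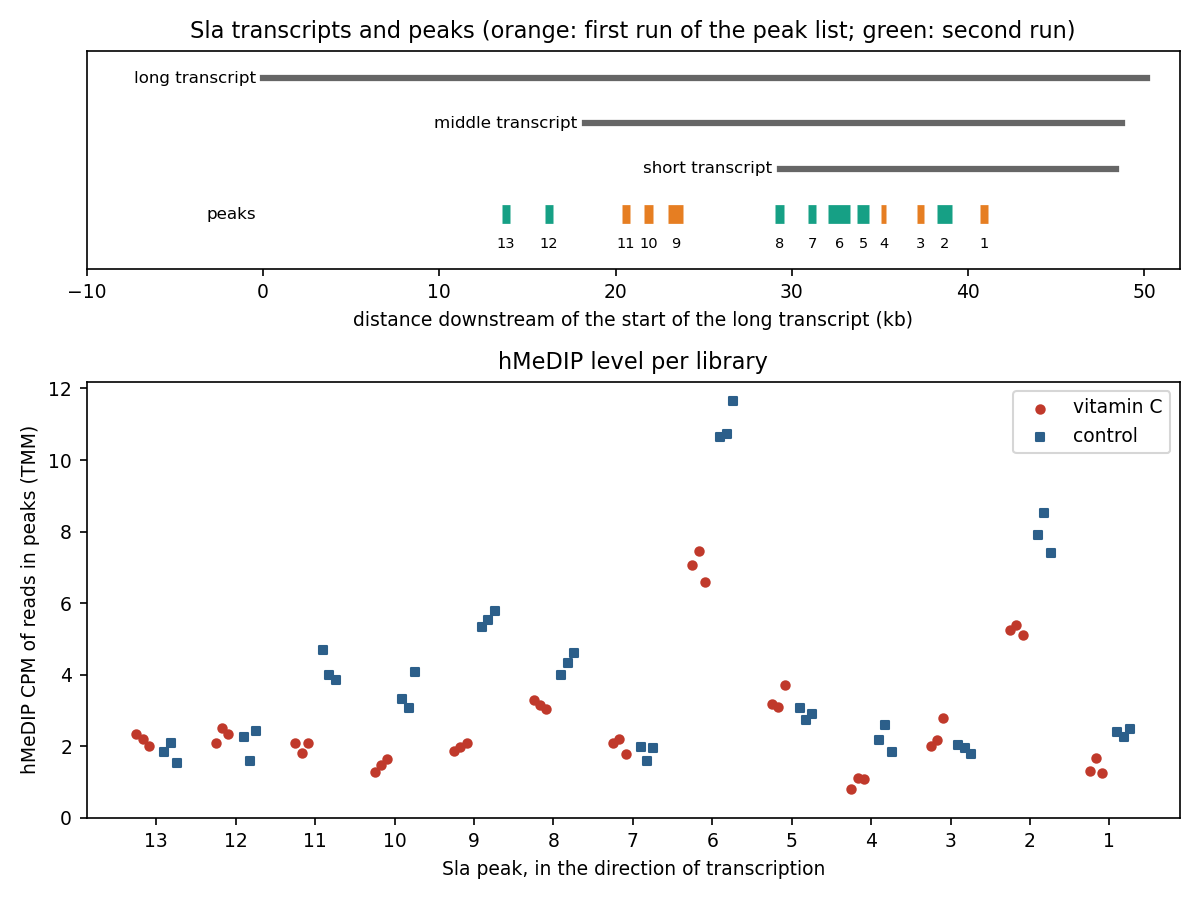
Top: the 3 listed Sla transcripts and the 13 peaks by distance from the start of the long transcript (kb). Bottom: hMeDIP CPM of each library at each peak, in the direction of transcription. Vitamin C libraries sit below the controls at peaks 11, 10, 9, 8, 6, 4, 2 and 1, and barely above them at peak 5.

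Each of the 2 peaks inside the long transcript and upstream of the middle start had overlapping groups in CPM of reads in peaks. At peak 13 (107620279 to 107620740, gene body of the long transcript) the vitamin C libraries had 2.34, 2.21 and 2.0 CPM and the control libraries 1.84, 2.08 and 1.53 CPM. Peak 12 (107617849 to 107618263), at -2018 bases from the middle start, had 2.09, 2.51 and 2.34 CPM with vitamin C and 2.26, 1.6 and 2.42 CPM in the controls. The groups overlapped at both, with log2 changes of 0.28 (SE 0.15) and 0.12 (SE 0.15).

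The 3 peaks between the middle and the short start held 3 of the 4 lowest changes of the gene, the other being that of peak 4. Peak 11 (107613452 to 107613922), 2351 bases downstream of the middle start, had 2.09, 1.82 and 2.09 CPM with vitamin C and 4.70, 3.98 and 3.85 CPM in the controls. Peak 10 (107612184 to 107612665) had 1.28, 1.47 and 1.63 CPM with vitamin C and 3.31, 3.07 and 4.07 CPM in the controls. Peak 9 (107610461 to 107611308) had 1.86, 1.99 and 2.09 CPM with vitamin C and 5.34, 5.54 and 5.78 CPM in the controls. At all 3 the groups were apart, and the log2 changes were -1.06 (SE 0.12), -1.27 (SE 0.14) and -1.48 (SE 0.11). Summed over these 1801 bases, the vitamin C libraries had 5.23, 5.27 and 5.82 CPM and the control libraries 13.3, 12.6 and 13.7 CPM, a log2 difference of -1.28.

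At the start of the short transcript the difference was smaller. Peak 8 (107604726 to 107605229), labelled a proximal promoter and centred 4 bases from that start, had 3.28, 3.16 and 3.04 CPM with vitamin C and 3.99, 4.33 and 4.62 CPM in the controls (log2 change -0.46, SE 0.11). The vitamin C libraries were all below the controls there.

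In the body of the short transcript, lower and higher peaks were interleaved. The largest peak, peak 6 (107600979 to 107602222), had 7.06, 7.46 and 6.60 CPM with vitamin C and 10.6, 10.7 and 11.7 CPM in the controls (log2 change -0.65, SE 0.07). Peak 2 (107595188 to 107596075) had 5.26, 5.4 and 5.11 CPM with vitamin C and 7.90, 8.53 and 7.40 CPM in the controls (-0.58, SE 0.08). Both were apart between the groups, as were the thinner peak 4 (log2 change -1.09, SE 0.17) and peak 1 (-0.75, SE 0.15). Between them lay peak 5 (107599912 to 107600576), with 3.17, 3.08 and 3.70 CPM with vitamin C and 3.08, 2.73 and 2.91 CPM in the controls (0.19, SE 0.12). It was the 1 Sla peak at which every vitamin C library was above every control, but barely. The lowest vitamin C and the highest control library both came to 3.08 CPM. Peaks 7 and 3 had log2 changes of 0.11 and 0.29, with overlap between the groups. Without control replicate 2, peak 12 turned to a log2 change of -0.015 and 9 peaks were lower. Across the 13 peaks a library held 29 to 381 hMeDIP reads per peak, so the SE of a single peak reached 0.17.

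Per length, the 8 Sla peaks that were lower with vitamin C were the stronger ones in the controls, at 5.15 to 8.94 CPM per kb. Peaks 2, 11, 6 and 8 had 8.94, 8.87, 8.85 and 8.55 CPM per kb in the controls, against a median of 5.48 for all peaks. The 5 peaks that were higher with vitamin C had 3.93 to 5.04 control CPM per kb. With vitamin C the 13 peaks ranged from 2.34 to 6.27 CPM per kb, against 3.93 to 8.94 in the controls. The level of a peak in the controls also enters its change, so this ordering is a description.

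The deposited peak list runs through the chromosomes 2 times, and the Sla peaks of the first run were more often lower than those of the second. Of the 6 Sla peaks in the first run (1, 3, 4, 9, 10 and 11) 5 were lower with vitamin C, and of the 7 in the second run (2, 5, 6, 7, 8, 12 and 13) 3 were lower. In the whole list 93.6% of first-run peaks and 27.1% of second-run peaks were lower. The median log2 changes were -1.0 over the first run and 0.28 over the second. The 4 lowest changes of Sla, at peaks 4, 9, 10 and 11, were all at first-run peaks. All 3 peaks between the short and the middle start are among these. First-run peaks around Sla under other names or none reached a log2 change of -1.99. How the runs were made was found in none of the labels or files, and their part in the values of Sla was not tested. The first-run Sla peaks summed to 9.35, 10.2 and 11.0 CPM with vitamin C and 19.96, 19.4 and 19.8 CPM in the controls, and the second-run peaks to 25.3, 26.04 and 24.6 CPM with vitamin C and 31.7, 31.6 and 32.5 CPM in the controls.

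Summed over the 13 peaks (7637 bases), Sla hMeDIP was lower with vitamin C by reads in peaks and overlapped by all counted reads. In CPM of reads in peaks the vitamin C libraries had 34.6, 36.3 and 35.5 and the control libraries 51.7, 51.0 and 52.3, a log2 difference of -0.54. Replicates 1 and 3 of both hMeDIP groups differed by less than the sampling noise and were counted as 1 sample, which gave 35.7 ± 0.84 CPM with vitamin C and 51.5 ± 0.67 CPM in the controls (SD, n = 2 each). In CPM of all counted reads the sums were 14.8, 16.3 and 14.9 with vitamin C and 15.96, 15.1 and 18.4 in the controls, a log2 difference of -0.11 with overlapping groups.

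Of all counted hMeDIP reads, 40.8% to 43.9% were in peaks in the vitamin C libraries and 30.8% to 35.7% in the control libraries. Scaling by all counted reads moved the median log2 change of all peaks by 0.43. The 3 peaks between the short and the middle start stayed lower with vitamin C under it, with 2.23, 2.36 and 2.44 CPM against 4.12, 3.74 and 4.83 CPM in the controls (log2 difference -0.85, no overlap). The 8 peaks from the short start to the 3′ end came to 10.6, 11.8 and 10.7 with vitamin C and 10.6, 10.3 and 12.2 in the controls. The direction of the 13 single peaks was as before, 8 lower and 5 higher (30.2% of all peaks were lower), but their sizes shifted. The lower peaks came nearer 0, with log2 changes of -0.03 at peak 8, -0.16 at peak 2 and -0.22 at peak 6. The 5 higher peaks lay at 0.54 to 0.72, beside a median of 0.47 for all peaks under this scaling. Over all peaks edgeR called 24.5% lower and 60.9% higher under this scaling, and 37.7% and 37.7% in CPM of reads in peaks. Sla was chosen by its peaks, so no calls are given for them. The 2 peaks upstream of the middle start summed to 1.88, 2.12 and 1.82 CPM with vitamin C and 1.27, 1.09 and 1.39 CPM in the controls, with no overlap (log2 difference 0.64). The second-run peaks came to 10.8, 11.7 and 10.3 CPM with vitamin C and 9.79, 9.37 and 11.5 CPM in the controls, with overlap and a log2 difference of 0.10, against -0.34 in CPM of reads in peaks. The first-run peaks kept a log2 difference of -0.52, against -0.95. So the label of Sla as a gene that lost 5-hydroxymethylcytosine was met by part of its peaks.

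**Figure D3:**
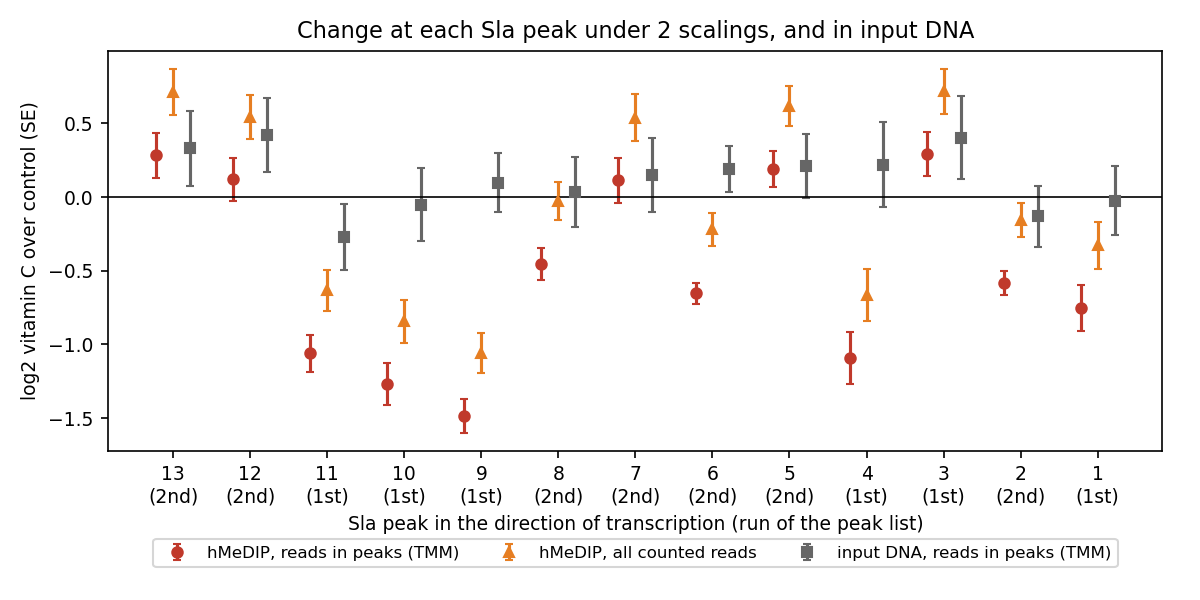
Log2 change (vitamin C over control, SE) at each Sla peak in hMeDIP scaled by reads in peaks (circles) and by all counted reads (triangles), and in input DNA (squares). Peaks 11, 10 and 9 are below 0 under both hMeDIP scalings, while the input values lie between -0.27 and 0.42.

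Input DNA, which played no part in choosing Sla, showed no change at its peaks that passed a test. Summed over the 13 peaks, input stood at 41.3, 45.0 and 42.1 CPM in the vitamin C libraries and at 41.8, 38.7 and 38.8 CPM in the control libraries, with overlap. None of the 13 was called by edgeR (0 of 13; 0 also at an unadjusted p below 0.05, and 0 by DESeq2), and their log2 changes ran from -0.27 to 0.42. Over all 215759 tested peaks 0 were called in input (0%), and 4.86% had an unadjusted p below 0.05. With 8 to 69 input reads per Sla peak and library the SE was 0.16 to 0.29, and changes larger than the SE could also go uncalled. The largest, 0.42 at peak 12 (SE 0.25), had an unadjusted edgeR p of 0.098.

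Relative to input, in CPM of reads in peaks, hMeDIP was lower with vitamin C at 12 of 13 Sla peaks, beside 46 of 91 peaks around Sla and 48.4% of all peaks. The exception was peak 7, at 0.77 with vitamin C and 0.76 in the controls. At peak 5 the ratios were nearly equal, 0.92 with vitamin C and 0.93 in the controls. Peaks 3, 5, 12 and 13 were higher with vitamin C in hMeDIP itself and had only 10 to 40 input reads per library. Their ratios overlapped between the groups, as did those of peaks 2 and 7. In CPM of all counted reads 7 of the 13 had a lower ratio, beside 30.7% of all peaks. The ratio of summed hMeDIP CPM to summed input CPM, which compares shares of reads in peaks and is no absolute enrichment, over the 13 peaks was 0.84, 0.81 and 0.84 in the vitamin C samples and 1.24, 1.32 and 1.35 in the control samples (log2 difference -0.65). With CPM of all counted reads in both assays it was 4.17, 4.20 and 4.20 with vitamin C and 4.50, 4.53 and 5.55 in the controls (-0.21). The groups were apart under both for the sum over 13 peaks, whereas for the 2 peaks upstream of the middle start the log2 difference of the ratio was -0.18 under the first scaling and 0.27 under the second.

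Several genes around Sla had lower RNA as well. Within 500000 bases of its peaks, 9 genes had a listed peak and 6 were tested, of which 4 fell and 0 rose by edgeR, against 21.0% and 19.1% of all genes. Tg, the thyroid hormone precursor on the opposite strand, had 7.21, 6.17 and 6.47 CPM with vitamin C and 8.88, 10.1 and 8.58 CPM in the controls and fell by 0.48 on the log2 scale (SE 0.11, edgeR adjusted p = 0.00788). The groups were apart, but a library held only 171 to 342 Tg reads, and without a stated strand setting reads of Tg and Sla cannot be told apart where they overlap. Of 6 thyroid markers 5 had a symbol and Tg alone was tested, and Pax8 had at most 2 reads per library. Wisp1, a secreted matrix-associated protein, averaged 6.68 ± 0.75 CPM with vitamin C and 25.4 ± 3.07 CPM in the controls (log2 change -1.92, SE 0.12, edgeR adjusted p = 8.23e-06).

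Farther out, Ndrg1, whose loss causes a demyelinating neuropathy in people, had 209 ± 21.2 CPM with vitamin C and 398 ± 24.7 CPM in the controls (log2 change -0.93, SE 0.08). The sialyltransferase St3gal1 had 419 ± 19.5 CPM with vitamin C and 805 ± 45.5 CPM in the controls (-0.94, SE 0.06). Phf20l1 (0.06) and Tmem71 (-0.02) did not pass. Lrrc6 and a pair of unnamed gene models had at most 1 read per library. The log2 changes of the 4 genes that fell were all nearer 0 than that of Sla, and these differences between genes were not tested.

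The peaks around Sla went both ways. Of 91 peaks in the same window under other names or none, 35 were called lower and 34 higher by edgeR, against 37.7% and 37.7% of all peaks. By run, 24 of 26 first-run and 25 of 65 second-run peaks were lower. The 11 Tg peaks, which lie on both sides of Sla and in none of its stretch, were split evenly with 4 called lower and 4 called higher. The 14 St3gal1 peaks had 2 called lower and 10 higher beside lower RNA, and the 10 Ndrg1 peaks 4 lower and 6 higher. Scaled by all counted reads, 18 of the 91 were called lower and 52 higher, against 24.5% and 60.9% of all peaks.

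**Figure D4:**
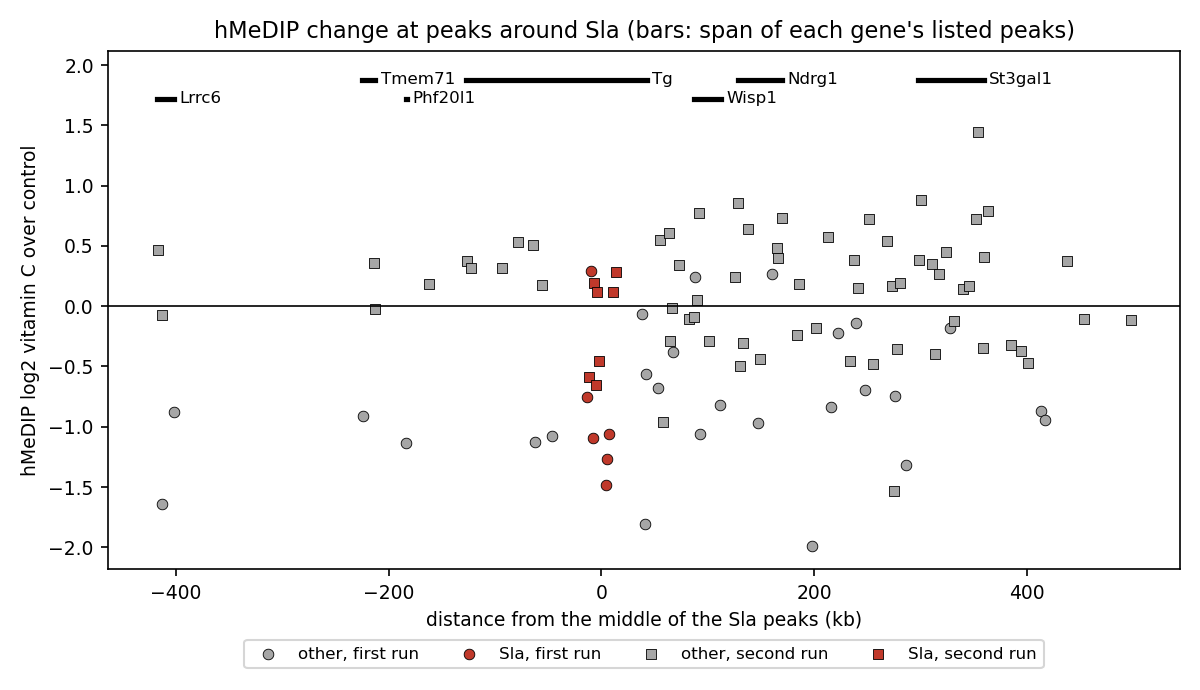
Log2 hMeDIP change (vitamin C over control) of the 13 Sla peaks (red) and the 91 other peaks around them (grey) by distance from the middle of the Sla peaks (kb), circles for the first run of the list and squares for the second. Peaks of both signs lie on either side of Sla.

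Genes that act with SLAP moved in both directions, and most did not pass. Of a list of 41 genes, which holds Src family kinases, their regulators, Cbl ligases, receptors that SLAP binds and adaptors, 38 had a symbol and 24 were tested. By edgeR 7 rose and 2 fell, against 19.1% and 21.0% of all genes, and the median log2 change was 0.06, beside -0.01 for all genes. Sla2, the close relative SLAP2, had 23.0 ± 0.92 CPM with vitamin C and 23.8 ± 0.99 CPM in the controls (log2 change -0.05, SE 0.07, edgeR adjusted p = 0.592).

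Among the receptors, Kit, the stem cell factor receptor, was the lowest. It had 31.8, 24.6 and 22.8 CPM with vitamin C and 115, 118 and 115 CPM in the controls, and fell by 2.13 on the log2 scale (SE 0.11, edgeR adjusted p = 4.55e-06). The platelet-derived growth factor receptors parted: Pdgfrb rose by 1.11 (SE 0.06) with 109 ± 6.68 CPM against 50.3 ± 0.20 CPM in the controls, while Pdgfra fell by 1.38 (SE 0.24) at 17 to 72 reads per library. The ephrin receptor Epha2 rose by 0.54 (SE 0.09). For the blood cell receptors Csf1r and Flt3 and the lymphocyte signalling genes Zap70, Syk, Lcp2, Vav1 and Cd247 too few reads were counted for a test, at most 10 per library.

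The Src family kinases Src (0.16, SE 0.06, edgeR adjusted p = 0.0534), Fyn (0.04), Yes1 (-0.08), Lyn (0.39) and Lck (-0.34) did not pass. Lyn and Lck had 10 to 30 reads per library. Src passed under 3 of the other settings, among them without vitamin C replicate 1. The membrane adaptor Pag1, which brings the inhibitory kinase Csk to Src kinases, rose by 0.94 (SE 0.09), and Csk itself did not pass (-0.08).

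The ubiquitin ligase Cbl, the partner of SLAP, did not pass (50.2 ± 4.05 CPM with vitamin C and 48.3 ± 1.02 CPM in the controls, log2 change 0.05, SE 0.07), nor did the ligase Ube3c (0.07). Its relative Cblb rose by 1.25 (SE 0.27, edgeR adjusted p = 0.00661), with 99.4, 48.5 and 48.0 CPM in the vitamin C libraries and 31.6, 26.2 and 24.4 CPM in the controls. Vitamin C replicate 1 stood above the other treated libraries there, and without it the log2 change was 0.82. The phosphatase Ptpn11 rose by 0.79 (SE 0.05), and the adaptor Grb2 rose by 0.19 (SE 0.06, edgeR adjusted p = 0.0369), a call lost under 6 of the other settings, scaling by all counted reads among them.

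**Figure D5:**
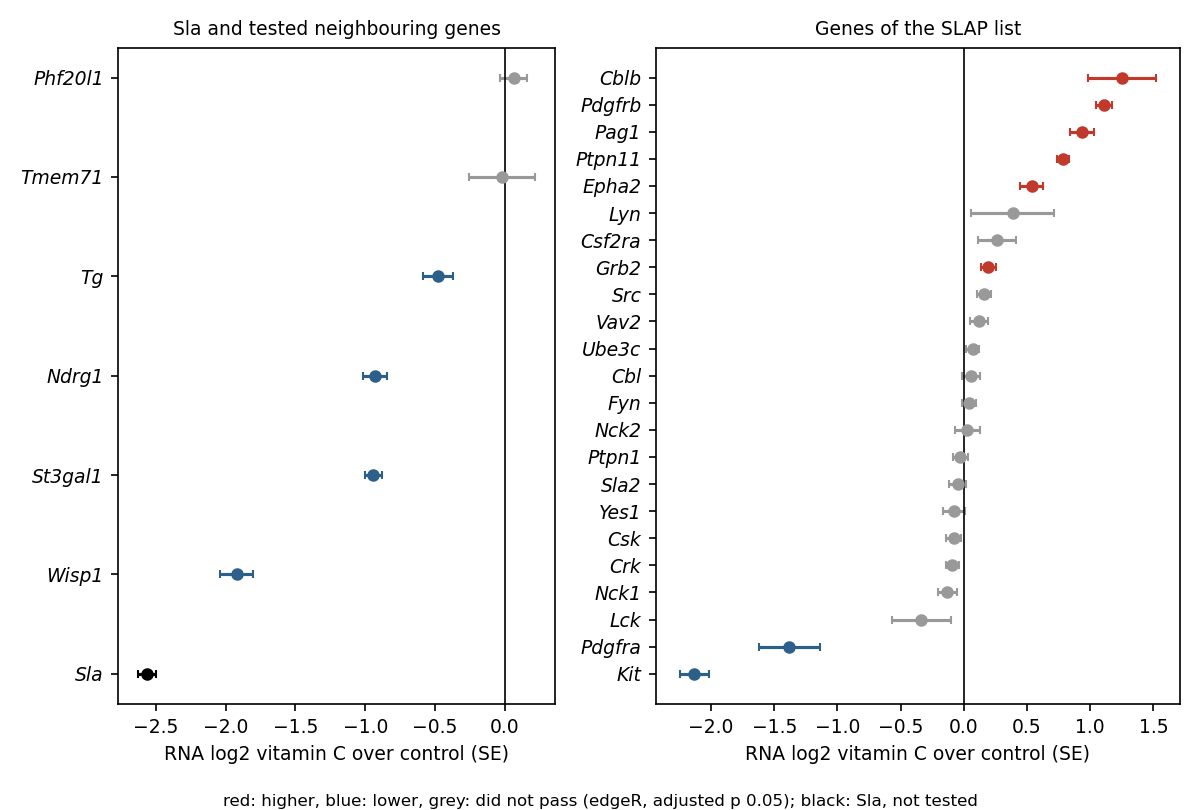
RNA log2 change (vitamin C over control, SE) of Sla and its 6 tested neighbouring genes (left) and of tested genes of the SLAP list (right). Red points rose, blue points fell and grey points did not pass (edgeR, adjusted p below 0.05); Sla itself, at -2.56, was not tested.

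The genes whose RNA pattern over the 6 libraries was nearest to that of Sla were found by the root mean square distance of log2 CPM, each gene centred on its own mean, among 7491 genes that had a symbol and whose average log2 CPM was 3 or more. The nearest was Pcsk1, a protease that cleaves prohormones, at a distance of 0.06, with 4.53, 4.87 and 5.55 CPM with vitamin C and 31.9, 32.8 and 33.4 CPM in the controls. Next came the heparan sulfate sulfotransferase Hs3st1 (0.14), the matrix protein Spon1 (0.16), the interferon-induced Mx2 (0.18), Kctd14 (0.20) and Map6d1 (0.23). Their log2 changes were between -2.89 and -2.33. Their peaks did not share a direction: 1 of 2 Pcsk1 peaks, 4 of 6 Hs3st1 peaks, 26 of 63 Spon1 peaks, 2 of 3 Mx2 peaks, 0 of 3 Kctd14 peaks and 2 of 5 Map6d1 peaks were lower with vitamin C, beside 47.8% of all peaks.

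Against other genes with lower RNA, Sla had a larger share of lower peaks and of first-run peaks. Of its 13 peaks 61.5% were lower and 46.2% stood in the first run. Among 54 genes with at least 10 peaks and RNA called lower with a log2 change of -1 or below, the median share of lower peaks was 45.6% and that of first-run peaks 27.1%, and among all 2537 genes with at least 10 peaks they were 33.3% and 17.6%. Sla was chosen for its lower peaks, so these shares are a description and were not tested.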

How the data were processed

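RNA, hMeDIP and input DNA were measured in 3 vitamin C and 3 control samples each, grouped by their labels. The authors deposited whole-number read counts per gene for RNA and per peak for hMeDIP and input, with a list of peak positions, genes and features. Per the submitters' processing notes, CASAVA 1.4, Trim Galore, STAR, BWA and HTSeq were used, with no step named for each. Build, annotation, peak caller, peak merging, strand setting and whether positions count from 0 or 1: not given in the sources used here. Deposited positions are printed unchanged. Symbols came from the peak list and cover 17003 of 32883 RNA identifiers.

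Entries that name no gene or peak were left out of library sizes. They held 42.3% to 53.9% of RNA counts, 56.1% to 69.2% of hMeDIP counts and 91.3% to 91.6% of input counts. No molecular identifiers are mentioned, so the SE covers the spread of reads, not of known molecules. Counts were fitted by edgeR 4.0.16 (R 4.3.3) with the quasi-likelihood F test, TMM factors, the default expression filter, treatment as the only term and Benjamini-Hochberg adjustment over all features at 0.05, apart for each assay. The code was tested on simulated data. DESeq2 1.42.0, other scalings, no filter, the replicate number as a block and leaving out each library were alternatives. Fits were written out with data.table (1.17.8) in R. Tables and plots were made with matplotlib 3.10.9, pandas 2.3.3 and numpy 2.4.6 in Python 3.11.15. A distance between RNA patterns used log2(CPM + 0.5).

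Replicates were compared by chi-square over features with at least 10 reads. hMeDIP replicates 1 and 3 gave 0.896 per degree of freedom with vitamin C and 0.963 in the controls, against 1.08 to 1.47 for other hMeDIP pairs. The planned rule merged such a pair only where the other pairs of its group were above 1.5, which was not met. The fit therefore keeps all 6 libraries, and a fit with replicates 1 and 3 summed is an alternative. In the hMeDIP mean ± SD these replicates still count as 1 sample, which departs from that rule. Input pairs gave 0.978 to 0.988, all within sampling noise.

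Genes were named by a rule: Sla and its peaks, Tg and neighbouring genes past the threshold, members of the SLAP list past it and its main kinases, ligases and receptors, the 6 nearest RNA patterns, and up to 6 genes with RNA and every peak lower. Phf20l1, Tmem71, Lrrc6, Pag1's partner Csk, the untested receptors and the untested markers fall outside it and were named after their values were seen. The gene, the lists of markers and partners, and the tests were chosen with earlier results of these data known. Some genes of the lists are counted but not reported by name here.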

Additional observations from a re-analysis of the deposited data

How the results depend on the processing

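Among single results, those that passed no test could change sign: peak 12, Tmem71 (-0.02, up to 0.07 without control replicate 3), Phf20l1 (0.06, and -0.02 without it), Fyn (0.04, and -0.02 by plain library size) and Cbl (0.05, and -0.01 without vitamin C replicate 1), besides Nck2 and Ptpn1. No gene past the threshold did so among the genes around Sla and the SLAP list, and the 8 lower Sla peaks kept their sign. The sum of the second-run Sla peaks turned to 0.10 under all counted reads. Scaling by all counted reads moved most: 1639 genes rose and 1115 fell in RNA, 131502 peaks were called higher and 52887 lower, 52 and 18 of the peaks around Sla (26 of 91 lower, against 49), and the summed Sla hMeDIP and its ratio to input came to log2 differences of -0.11 and -0.21. DESeq2 called 22 of the peaks around Sla higher. With libraries left out in turn, RNA calls ranged from 1710 to 2718 higher and from 1784 to 2916 lower, both lowest without control replicate 2. Over the same settings Sla RNA stayed between -2.61 and -2.53, summed hMeDIP between -0.56 and -0.52, its ratio to input between -0.68 and -0.62, lower Sla peaks between 8 and 9, the SLAP list between 6 and 9 genes higher with 2 lower, and the genes around Sla at 4 lower and 0 higher. Peaks around Sla ranged from 29 to 33 higher and 32 to 35 lower, and all peaks from 74767 to 82304 higher and from 76804 to 80507 lower. For all of these changes the cause was not tested.

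Shared replicate numbers are not said to pair samples. Deviations of same-numbered RNA libraries had correlations of 0.25, 0.14 and 0.03, those of hMeDIP libraries -0.03, -0.20 and -0.11, and vitamin C RNA replicate 3 correlated best with control replicate 2. With the replicate block 2705 genes rose and 2839 fell, 78641 peaks were called higher and 80263 lower, Sla RNA changed by -2.57, 8 SLAP list genes rose, and Src passed. Replicates this close (n = 2 in hMeDIP) and 29 to 381 reads per Sla peak limit what single peaks can show.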

Other observations

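Sla kept some peaks that were not lower beside its lower RNA, and few genes had every peak lower. The counts here are in CPM of reads in peaks. Of 186 genes with at least 3 tested peaks and RNA called lower with a log2 change of -1 or below, 9 had every peak lower with vitamin C, and of 6357 other genes 163 did. Both measures chose these genes, so no test is given. By the log2 cut alone there were 10, and the lowest in RNA were the brain proteoglycan Ncan (-2.62, 4 peaks), tissue factor F3 (-2.46, 3 peaks) and Clic3 (-1.94, 3 peaks). Next were the calcium pump Atp2b3 (-1.93, 5 peaks), Rgs10 (-1.77, 6 peaks), which speeds the switching off of G proteins, and the melanosome protein Oca2 (-1.53, 8 peaks). The highest peak change lay near 0 in Ncan (-0.02), F3 (-0.08) and Rgs10 (-0.09). It was -0.25 in Clic3, -0.58 in Oca2 and -0.83 in Atp2b3. Scaling by all counted reads moved the median log2 change of all peaks by 0.43, so the smaller of these changes depend on the scaling.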
